A study of Mus musculus with 6 samples.

Results

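Programmed cell death runs through a small set of transcripts whose protein products can be ordered by role, and 43 such genes, taken by symbol from a list of apoptosis, necroptosis and pyroptosis effectors, are described here. All 43 were found among the 28043 genes of the tables. RNA was sequenced from primary retinal pigment epithelium (RPE) cells of the mouse eye, the pigmented layer that supports the photoreceptors. The Normal group (3 libraries) came from normal mice and the PVR group (3 libraries) from mice with proliferative vitreoretinopathy, a scarring disease of the injured eye, which the series title calls traumatic. The labels give no strain, genotype, age, time after injury or drug for either group, and do not say how the RPE was isolated or whether replicates were separate animals. The p-values therefore rest on the spread among these 6 libraries alone, and that spread may be technical in origin.

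In mitochondrial apoptosis, BH3-only proteins sense damage and release BAX and BAK from pro-survival BCL2 proteins, so that the outer membrane is opened, cytochrome c escapes and APAF1 assembles the complex that activates caspase-9. Death receptors such as the TNF receptor work from the cell surface through FADD, TRADD, RIPK1 and caspase-8. Where caspase-8 is held back, RIPK3 and MLKL can rupture the membrane (necroptosis), and gasdermins cut by inflammatory caspases form pores in pyroptosis. All these steps are controlled largely at the protein level, so a transcript level is not a measure of death.

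Libraries held 15269983 to 19173187 reads over all genes, and values are read counts normalised to a common library size. Markers of the RPE were abundant, although 9 of the 14 tested were lower in PVR and none was higher. Rpe65, the visual cycle isomerase, was 86793 ± 3425 in Normal and 31775 ± 5689 in PVR libraries (SD, n = 3 each, as throughout), and Rlbp1, a retinoid carrier, was 89266 ± 6419 and 45597 ± 7111. Best1, a chloride channel used as an RPE marker, was close to absent at 7.56 to 22.8 in the 6 libraries. Of 26 macrophage and microglia markers, 24 were higher in PVR and 1 was lower. Their summed level was 11054 to 12405 in Normal libraries and 78553, 102770 and 42199 in PVR 1, 2 and 3, and no marker was at 0 in any library. Ptprc (CD45) went from 32.2 ± 10.2 to 628 ± 276, Itgam from 3.87 ± 2.58 to 248 ± 98.3, Aif1 from 5.74 ± 1.93 to 107 ± 58.0 and Adgre1 from 40.5 ± 18.9 to 722 ± 312, while Csf1r, a macrophage receptor already at 10038 ± 998 in Normal, was lower at 7392 ± 947. Among fibroblast markers 7 of 10 were higher (sums of 2930 to 6742 against 14872 to 22066). Neutrophil markers summed to 9.06 to 34.0 in Normal and 203 to 449 in PVR libraries, with Cxcr2, Retnlg and Ngp at 0 in every Normal library. Lymphocyte markers summed to 11.1 to 32.0 and 55.8 to 81.3, with Cd3d, Cd3g, Klrb1c and Ms4a1 at 0 in every Normal library. These shifts in other cell types run alongside every result on the death genes, and their part in those results was not tested. In RNA from whole cell preparations, fewer cells of a type and less RNA per cell cannot be told apart.

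Of the 41 death genes with enough reads to test, 18 were higher in PVR (43.9%) and 4 were lower (9.76%), where 17.9% and 12.9% of the 15766 genes tested were called higher and lower (limma, Benjamini-Hochberg adjusted p under 0.05 over all genes). The genes that rose were Bcl2a1b, Bcl2a1d, Bok, Bid, Bcl2l11, Bbc3, Pmaip1, Casp8, Casp12, Apaf1, Birc3, Ripk1, Ripk3, Mlkl, Gsdmd, Ninj1, Trp53 and Mdm2. The genes that fell were Bcl2, Bad, Xiap and Aifm1. The 3 PVR values lay wholly above the Normal values in 21 genes and wholly below in 6, against 24.7% and 23.3% of all genes tested. Over all 43 genes the median log2 change, taken as the PVR mean less the Normal mean of log2(normalised count + 1), a scale that shrinks changes of scarce transcripts, was 0.33, beside 0.01 over all genes with reads.

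The count of 18 rests in large part on genes at low levels. Of these 18, 8 reached the minimum of 10 reads for testing through their PVR libraries alone (Bcl2a1b, Bcl2a1d, Bok, Pmaip1, Casp12, Ripk3, Mlkl and Gsdmd), so that being tested and being higher were not independent for them. Among the 32 genes with a mean of at least 100 normalised counts, 10 were higher (31.2%) and 4 lower (12.5%), beside 17.4% and 16.4% of all genes at that level, and the median log2 change was 0.00. Bid and Bbc3, 2 of these 10, reached that mean through their PVR libraries, so the count is not free of the same dependence. Of the 30 genes with a mean of at least 100 in the Normal libraries themselves, 8 were higher and 4 lower, with Ninj1 and Birc3 the genes with the largest increases. The share of all genes at that Normal level is not given here, so these counts cannot be set against a background.

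**Figure D1:**
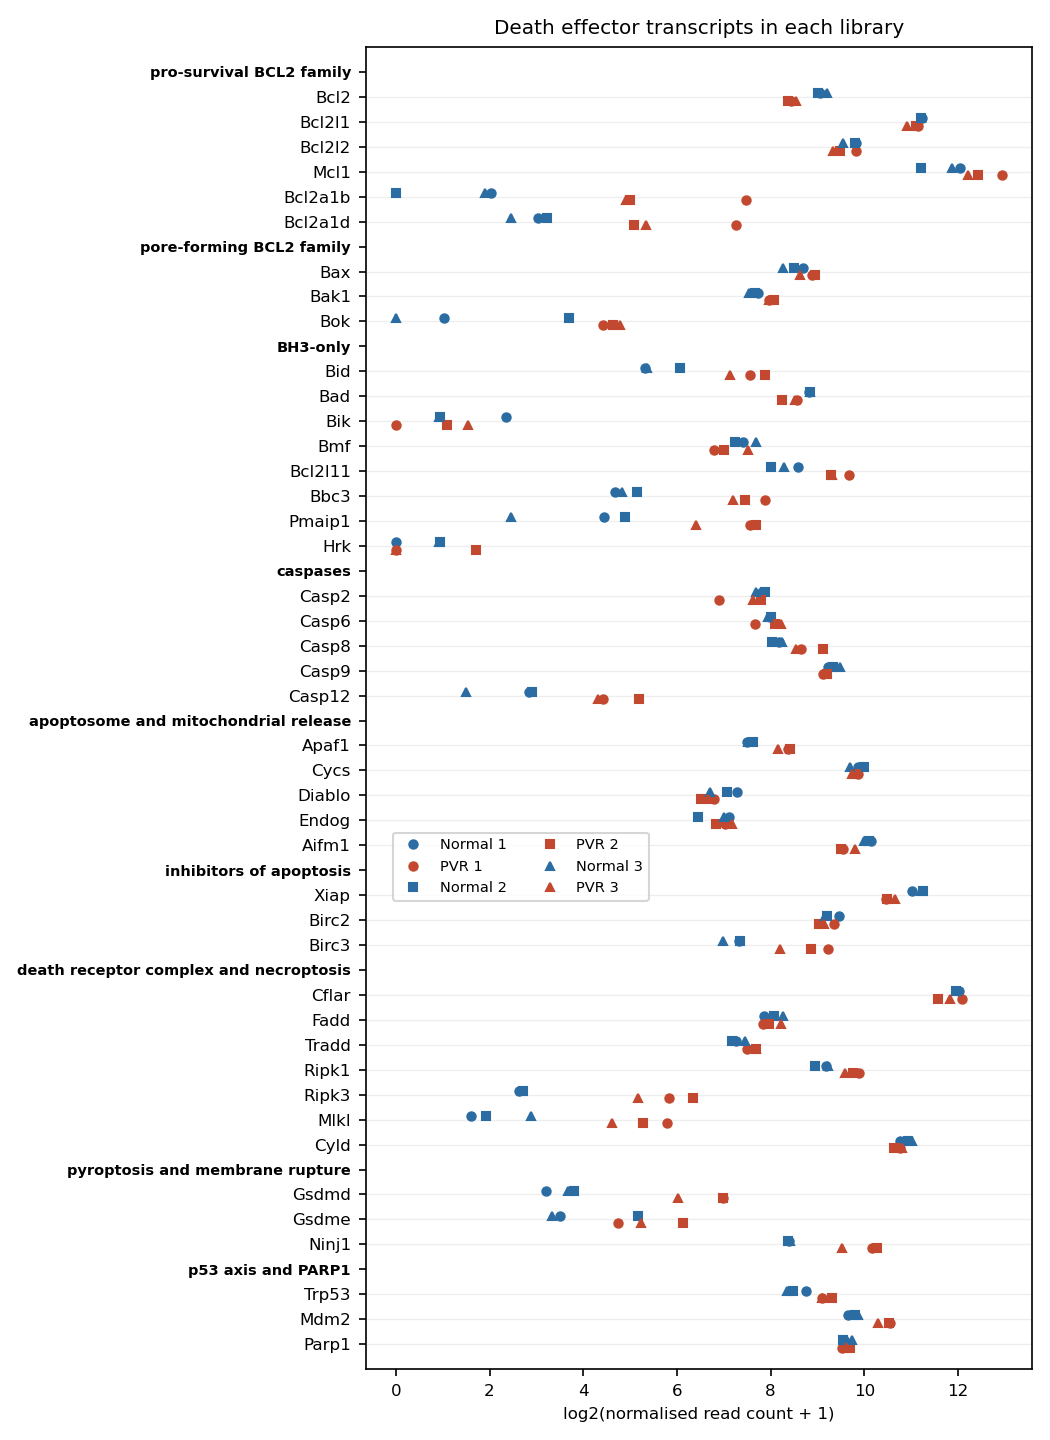
Level of each of the 43 death genes in each library, as log2(normalised read count + 1), in blue for Normal and red for PVR (circles, squares and triangles for replicates 1, 2 and 3), grouped by role. The widest gaps between the colours are at genes with the lowest Normal levels, such as Bcl2a1b, Ripk3, Mlkl and Gsdmd, while Cycs, Fadd, Birc2 and Parp1 overlap.

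The pro-survival BCL2 proteins, which hold BAX and BAK in check, did not move as a group: of 6 genes, 2 rose, 1 fell and 3 were not called. Bcl2 (chr1:106538178-106714274, GRCm38 with GENCODE M21 gene bounds, as for all positions below), the founding member, was 534, 517 and 591 in Normal 1 to 3 and 347, 329 and 370.2 in PVR 1 to 3. Every PVR library was below every Normal library, and Bcl2 fell by 0.65 on the log2 scale (SE 0.12, limma adjusted p = 0.00264), a 1.57-fold lower mean. Bcl2l1 (chr2:152780668-152831728), which encodes BCL-XL, was 2404, 2381 and 2374 in Normal and 2257, 2213 and 1926 in PVR libraries. These values did not overlap either, but the difference of -0.17 (SE 0.10) did not pass the test (limma adjusted p = 0.241). Bcl2l2, which encodes BCL-w, had overlapping groups of 748 to 901 and 642 to 904.

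Mcl1, a short-lived pro-survival protein, was the most abundant of the 43 transcripts per length and lay at the edge of the threshold. It (chr3:95658788-95663176) was 4191, 2359 and 3725 in Normal and 7826, 5526 and 4755 in PVR libraries, so the groups did not overlap. The log2 difference was 0.83 (SE 0.26) with a limma adjusted p of 0.0521, which became 0.00624 in limma with the replicate number as a block (where 19.5% of all genes were called higher and 14.3% lower) and 0.00203 in DESeq2. The lowest Normal value was in replicate 2, where the 10 genes of an immediate early and dissociation list summed to 131220, against 334100 and 335480 in Normal 1 and 3. In PVR 1 to 3, where Mcl1 was higher, the same genes summed to 189680, 124190 and 157790. Within the groups, Normal 2 was the lowest Normal library and PVR 1 the highest PVR library in both the list and Mcl1. Between the groups, Mcl1 was higher in every PVR library and the list sum was not. The part of the list in the Mcl1 values was not tested.

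Bcl2a1b and Bcl2a1d encode copies of A1, a pro-survival protein known mainly from leukocytes and induced by inflammatory signals. They lie apart on chromosome 9, at chr9:89199209-89207827 (plus strand) and chr9:88723285-88731914 (minus strand). Their coding sequences, 519 bases each, differ at 6 bases (98.8% identity), which limits how far reads can be assigned to one copy. The first 90 coding bases, shown because they hold 2 of these differences (in capitals), read:
Bcl2a1b: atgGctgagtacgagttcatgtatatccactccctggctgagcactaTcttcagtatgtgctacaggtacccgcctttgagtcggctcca
Bcl2a1d: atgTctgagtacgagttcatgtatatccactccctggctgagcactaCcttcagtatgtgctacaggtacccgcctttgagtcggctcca

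The stretches before their starts are also alike. Shown here are 120 bases, from 184 to 65 bases before the RefSeq start (RefSeq, GRCm38.p6). Capitals mark matches to the PU.1 motif GAGGAAGT and to TGANTCA, a loose form of the AP-1 motif in which N is any base. Both TGANTCA matches read TGAATCA. The stretch is shown because these 2 genes had the only TGANTCA matches among the death genes. Bcl2a1b lies at chr9:89199089-89199208 on the plus strand and Bcl2a1d at chr9:88731915-88732034 on the minus strand.
Bcl2a1b: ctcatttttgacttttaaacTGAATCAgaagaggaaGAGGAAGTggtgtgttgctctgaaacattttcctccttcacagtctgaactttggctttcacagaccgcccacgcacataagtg
Bcl2a1d: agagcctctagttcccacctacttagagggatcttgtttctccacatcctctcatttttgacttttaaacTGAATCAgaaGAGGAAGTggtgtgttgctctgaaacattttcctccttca

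Motifs were searched on both strands in the 250 bases before the RefSeq start of the 39 death genes with a promoter entry (51 promoters). TGANTCA was found in 2 genes (Bcl2a1b and Bcl2a1d) and in 6.75% of all 32851 promoters. GAGGAAGT was found in 4 (Bad, Bak1, Bcl2a1b and Bcl2a1d) and in 2.44% of all promoters. A 10-base NF-kB pattern was found in Bbc3, Bcl2l1, Cyld and Mcl1 (1.41% of all), and its narrower form, every match of which is also a match of the wider one, in Cyld (0.356%). For the Bbc3 and Mcl1 windows, the bases shortly after the RefSeq start were not found in a GENCODE transcript of the gene. A p53 half-site was found in Bax, Bmf, Mdm2 and Trp53 (7.13% of all). The interferon response element pattern (2.98% of all) and the CHOP and ATF4 pattern TGATGCAAT (0.167%) were found in none of the 39. These matches are letters in a window, not bound sites.

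Both A1 copies had fewer than 10 reads in each Normal library and rose in PVR, with 1 PVR library far above the others. Bcl2a1b had 3, 0 and 3 reads in Normal 1 to 3 and 171, 27 and 31 in PVR 1 to 3, which are 3.09, 0 and 2.72 against 176, 30.8 and 29.3 normalised counts. Bcl2a1d had 7.21, 8.34 and 4.53 normalised counts in Normal and 153, 33.0 and 39.7 in PVR libraries. In both, PVR 1 was several times higher than PVR 2 and PVR 3, which in turn were above all Normal libraries. The log2 changes were 4.48 (SE 0.82, limma adjusted p = 0.00367) for Bcl2a1b and 2.99 (SE 0.58, adjusted p = 0.00388) for Bcl2a1d. Without PVR 1 they were 3.65 (adjusted p = 0.0124) and 2.31 (adjusted p = 0.0116), and without Normal 2 the Bcl2a1b change was 3.83. With 56.8% and 54.7% of their 100-base stretches shared with each other or with other copies, the split between them is uncertain. Summed with the Bcl2a1a copy, the 3 genes gave 13.4, 8.34 and 9.06 normalised counts in Normal and 384, 70.6 and 79.3 in PVR libraries, again with PVR 1 far above the others and every PVR library above every Normal one.

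Of the pore-forming genes, Bax and Bak1 differed little between groups and Bok rose from near 0. Bax (chr7:45461697-45466898) was 415, 363 and 305 in Normal and 469.6, 494 and 397 in PVR libraries, where PVR 3 lay below Normal 1 (log2 0.33, SE 0.15, limma adjusted p = 0.122). Bak1 (chr17:27019810-27029009) was 212, 204 and 186 in Normal and 250.2, 267 and 248 in PVR libraries. Its groups did not overlap, and the difference of 0.35 (SE 0.14) did not pass the test (limma adjusted p = 0.0877). Bok (chr1:93685660-93695764), a relative of BAX and BAK that can act without them, had 1, 13 and 0 reads in Normal and 20, 21 and 28 in PVR libraries. It was called higher (log2 3.04, SE 0.86, limma adjusted p = 0.0256), but at this depth 1 library decides its size. Without Normal 2 the change was 4.11 (adjusted p = 0.00109) and without Normal 3 it was 2.25 (adjusted p = 0.0672). The call was also lost without Normal 1 and without each PVR library in turn (adjusted p = 0.064 to 0.0961), and edgeR gave 0.08.

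Of the 8 BH3-only genes, which start mitochondrial apoptosis, 4 rose, 1 fell, Bmf was not called, and Bik and Hrk had too few reads to test. Bbc3 (chr7:16308393-16318205), which encodes PUMA, a p53 target, was 24.7, 34.3 and 27.2 in Normal and 234, 175 and 145 in PVR libraries. All PVR libraries were far above the Normal ones, and the change was 2.63 (SE 0.26, limma adjusted p = 0.000147), a 6.43-fold higher mean. Bcl2l11 (chr2:128126038-128162547), which encodes BIM, was 382, 256 and 309 in Normal and 819.6, 622 and 635 in PVR libraries. The lowest PVR value was well above the highest Normal value, with a change of 1.14 (SE 0.17, adjusted p = 0.00101) and a 2.19-fold higher mean.

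Bid (chr6:120891930-120916853), whose protein is cut by caspase-8 and carries death receptor signals to mitochondria, was 39.2, 65.8 and 39.9 in Normal and 186, 233 and 139 in PVR libraries. The groups were well apart, with a log2 change of 1.94 (SE 0.28, limma adjusted p = 0.000891). Pmaip1, which encodes NOXA, an antagonist of MCL1, was 20.6, 28.7 and 4.53 in Normal and 187, 204 and 84.1 in PVR libraries. Its change was 3.28 (SE 0.66, adjusted p = 0.00829), and 2.55 (adjusted p = 0.00408) without Normal 3, the lowest library. Bad (chr19:6941861-6951899), a BH3-only protein silenced by survival kinases, went the other way: it was 449, 460.3 and 457 in Normal and 375, 303 and 366 in PVR libraries. It fell by 0.39 (SE 0.13, adjusted p = 0.0388), a call lost in DESeq2 (adjusted p = 0.0593) and without any single one of Normal 1, Normal 2, Normal 3 or PVR 2 (adjusted p = 0.0933 to 0.114). Bik (0 to 4 reads) and Hrk (0 to 2 reads) were at or near the floor of 3 reads in all libraries, which allows no statement on a difference.

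**Figure D2:**
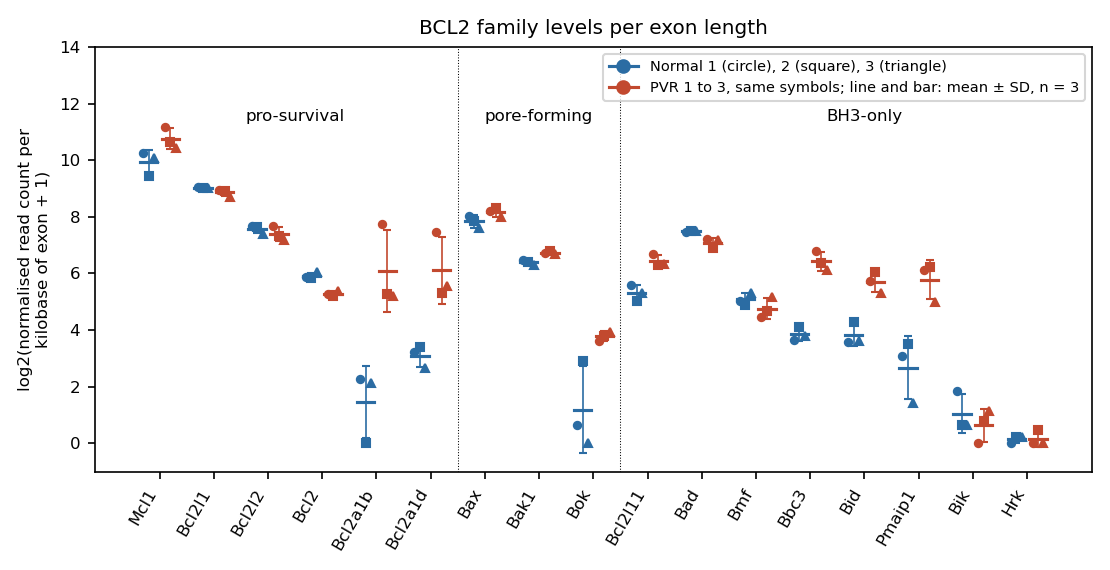
Level of the BCL2 family genes per exon length, as log2(normalised read count per kilobase of exon + 1), in blue for Normal and red for PVR, with 1 point per library and the mean ± SD of 3 libraries. Mcl1 and Bcl2l1 stand at the top of the family in both groups, and Bbc3, Bid, Pmaip1 and the A1 copies start from low Normal levels.

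Per kilobase of exon, which allows levels of different genes to be set side by side, Mcl1 and Bcl2l1 stood highest in the BCL2 family in both groups. Mcl1 stood at 1002 ± 279 normalised counts per kilobase in Normal and 1766 ± 467 in PVR libraries, and Bcl2l1, the next in Normal, at 520.4 ± 3.52 and 465 ± 39.2. Bax followed in the family at 229 ± 34.9 and 288 ± 32.2. The ratio of Mcl1 to Bcl2l1 was 2.34, 1.33 and 2.11 in Normal and 4.65, 3.35 and 3.31 in PVR libraries. With the longest transcript as the length it was 1.31, 0.744 and 1.18 against 2.60, 1.88 and 1.86, so the order of the pair turned in Normal 2. The ratio of Bax to Bcl2 per kilobase was 4.52, 4.08 and 3.003 in Normal and 7.86, 8.73 and 6.23 in PVR libraries. That of Bcl2l11 to Bcl2 was 0.817, 0.564 and 0.596 against 2.69, 2.15 and 1.96. With the longest transcript it was 1.02, 0.706 and 0.747 against 3.37, 2.70 and 2.45, so Bcl2l11 was above Bcl2 in each PVR library with both lengths, while Normal 1 lay on either side of 1. These ratios restate the values above and were not tested.

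Both death initiation routes held a gene that rose, Casp8 and Apaf1. Of the 5 caspases, Casp8 and Casp12 rose. Casp8 (chr1:58795374-58847503), the initiator of the death receptor pathway and the brake on necroptosis, was 289.6, 261 and 299.99 in Normal and 401, 557 and 371 in PVR libraries. All PVR values lay above the Normal ones (log2 0.62, SE 0.17, limma adjusted p = 0.0186), and the adjusted p was 0.0525, 0.0551 and 0.0535 without Normal 1, Normal 2 and PVR 2. Casp12 (chr9:5345430-5373032), of the inflammatory caspase group, was near the floor in Normal at 6.18, 6.48 and 1.81 and stood at 20.6, 35.3 and 18.9 in PVR libraries (log2 2.23, SE 0.54, adjusted p = 0.0121, and 0.0598 without PVR 2). Casp9 (chr4:141793612-141815976), the initiator of the mitochondrial pathway, was 601, 645 and 711 in Normal and 551, 589 and 578 in PVR libraries. It did not overlap, in the downward direction, but was not called (log2 -0.18, adjusted p = 0.232). Casp2, at 207 to 233 against 118 to 222, and Casp6, at 247 to 258 against 202 to 296, overlapped.

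Apaf1 (chr10:90989311-91082770), the scaffold that activates caspase-9, was 180.4, 197 and 181 in Normal and 332, 342 and 283 in PVR libraries. It was evenly higher in all PVR libraries (log2 0.77, SE 0.14, limma adjusted p = 0.00301). The cargo released from mitochondria did not follow. Cycs, which encodes cytochrome c, was 831 to 1022 in Normal and 855 to 929 in PVR libraries. Diablo, which encodes the IAP antagonist SMAC, was 103 to 155 and 89.98 to 109, and the nuclease gene Endog was 87.1 to 137 and 114 to 143, all with overlapping groups. Aifm1 (chrX:48474944-48513563), a flavoprotein needed for the respiratory chain that can also act on DNA in dying cells, was 1138, 1090.0 and 1022 in Normal and 743, 723 and 893 in PVR libraries. It fell by 0.47 (SE 0.11, adjusted p = 0.0123), with an adjusted p of 0.0519 without Normal 1.

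The inhibitors of apoptosis split 3 ways. Xiap (chrX:42059679-42109656), which binds and blocks caspases directly, was 2089, 2444 and 2359 in Normal and 1421, 1427 and 1615 in PVR libraries. It fell by 0.63 (SE 0.11, limma adjusted p = 0.00195), a 1.54-fold lower mean. Birc3 (chr9:7848699-7873186), which encodes cIAP2, a ubiquitin ligase of TNF receptor complexes and a known NF-kB target, was 159.8, 163 and 126 in Normal and 595, 464 and 292 in PVR libraries. It rose by 1.53 (SE 0.25, adjusted p = 0.00203), a 3.01-fold higher mean, with PVR 3 lowest of the PVR libraries. Birc2, which encodes the close relative cIAP1, was 569 to 705 and 522 to 656 and was not called. Per kilobase, Xiap was 6.92, 7.93 and 9.91 times Birc3 in Normal and 1.26, 1.63 and 2.93 times in PVR libraries, so Xiap was the more abundant in every library.

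In the death receptor complex and necroptosis group, 3 of 7 genes were higher (Ripk1, Ripk3 and Mlkl) and none was lower. Cflar, Fadd, Tradd and Cyld were not called, while Casp8, which acts in the same route, rose as given above. Ripk1 (chr13:34002363-34037147), the kinase at the branch between survival, apoptosis and necroptosis, was 581, 491 and 599 in Normal and 950.4, 869 and 766 in PVR libraries (log2 0.63, SE 0.13, limma adjusted p = 0.00456). Ripk3 (chr14:55784995-55788865), the kinase that commits to necroptosis, had 5, 6 and 6 reads in Normal and 54, 70 and 37 in PVR libraries. Mlkl (chr8:111311797-111338177), the membrane-rupturing substrate of RIPK3, had 2, 3 and 7 reads in Normal and 53, 33 and 25 in PVR libraries. Both were thus barely detected in Normal cells and had at least 25 reads in each PVR library. In normalised counts Ripk3 went from 5.38 ± 0.207 to 56.8 ± 22.4 (log2 3.10, SE 0.41, adjusted p = 0.000591) and Mlkl from 3.73 ± 2.29 to 38.6 ± 15.5 (log2 3.09, SE 0.52, adjusted p = 0.00184).

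The other 4 genes of this complex differed by less than the threshold. Cflar, which encodes cFLIP, the inhibitor of caspase-8, was abundant at 3949.8 to 4181 in Normal and 3058 to 4365 in PVR libraries (limma adjusted p = 0.436). The adaptor gene Fadd was 232 to 308 and 228 to 297. Tradd, the adaptor of TNF receptor 1, was 144 to 175 and 179 to 205, without overlap but with an adjusted p of 0.162. Cyld, the deubiquitinase that frees RIPK1 from its ubiquitin chains, was 1739.8 to 2084 and 1593 to 1782, with an adjusted p of 0.247.

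Of the 3 genes of lytic membrane rupture, Gsdmd and Ninj1 rose. Gsdmd (chr15:75862327-75867408), the pore protein of pyroptosis, had 8, 14 and 13 reads in Normal and 122, 110 and 68 in PVR libraries. In normalised counts this is 10.998 ± 2.46 against 105 ± 35.4, a 9.55-fold higher mean (log2 3.10, SE 0.37, limma adjusted p = 0.00033). Ninj1 (chr13:49187485-49196244), which breaks the plasma membrane late in lytic death, was 337, 332 and 338 in Normal and 1154, 1235 and 737 in PVR libraries. The Normal values were nearly equal and every PVR library was more than double them (log2 1.59, SE 0.18, adjusted p = 0.00033). Per kilobase Ninj1 went from 214 ± 1.89 to 664 ± 170.3, from rank 8 to rank 2 among the 43 genes (rank 10 to rank 3 with the longest transcript as the length). Gsdme, another gasdermin, was 10.3, 35.2 and 9.06 in Normal and 25.7, 69.5 and 36.8 in PVR libraries. Its groups overlapped, with Normal 2 above PVR 1, and replicate 2 was the highest of each group. The adjusted p was 0.0949, and 0.0188 with the replicate number as a block, where each PVR library is set against the Normal library of its number.

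In the p53 axis Trp53 and Mdm2 both rose. Trp53 (chr11:69580359-69591873), which encodes the p53 tumour suppressor, was 429, 357 and 324 in Normal and 549.9, 629.8 and 551 in PVR libraries (log2 0.65, SE 0.14, limma adjusted p = 0.00591). Mdm2 (chr10:117688875-117710758), at once a p53 target and the ligase that removes p53, was 809, 891 and 928 in Normal and 1505, 1465 and 1257 in PVR libraries (log2 0.68, SE 0.11, adjusted p = 0.00153). Both were higher in every PVR library, by 1.56 and 1.61 times on the means. Parp1, a DNA damage sensor cut by caspases in apoptosis, was 744 to 858 and 735 to 822 and overlapped.

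**Figure D3:**
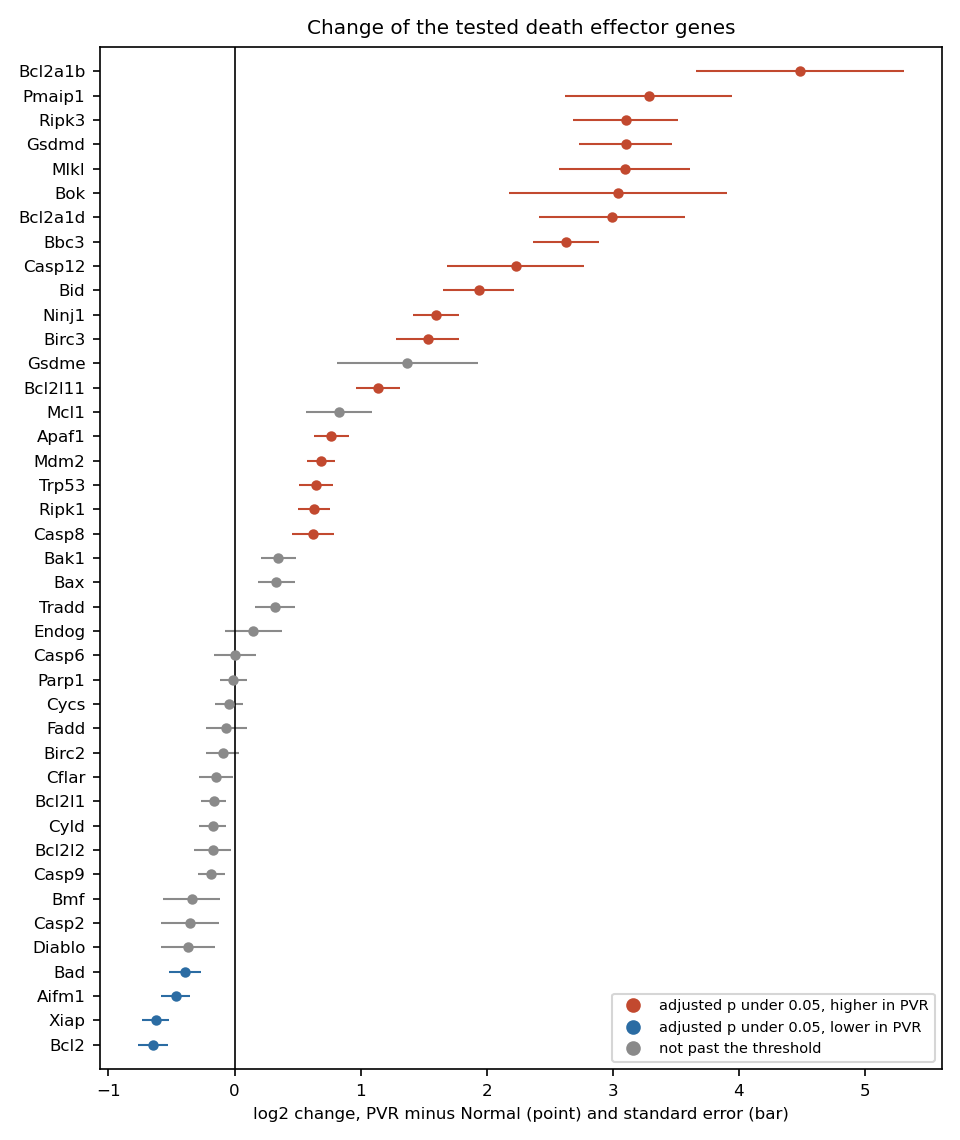
Log2 change between PVR and Normal for the 41 tested death genes (point) with its standard error (bar), coloured by the limma call. The 18 genes in red rose, from Casp8 at 0.62 to Bcl2a1b at 4.48, the 4 in blue fell (Bad, Aifm1, Xiap and Bcl2), and the 19 in grey did not pass the threshold.

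The genes around these effectors were read from 5 further lists of death pathway genes that are not among the 43. Of 80 such genes in the tables, 73 were tested, 26 were higher (35.6%) and 5 lower (6.85%), beside the 17.9% and 12.9% of all genes given above, and the median log2 change over the 80 was 0.36. As with the 43, some of these genes reached the minimum of 10 reads for testing through their PVR libraries alone. For those, being tested and being higher were not independent. Of 10 death ligands and receptors, 8 were tested, 4 rose and 1 fell. Tnfrsf1a, the TNF receptor with a death domain, rose from 1290.4 ± 64.2 to 2881 ± 260.4 (log2 1.16, SE 0.10, limma adjusted p = 9e-05), and Tnfrsf1b, the TNF receptor prominent on leukocytes, from 68.6 ± 25.1 to 1113 ± 545. Fas rose from 44.2 ± 5.34 to 140.4 ± 44.3, and Ltbr from 1719.6 ± 118 to 2213 ± 75.7. The receptor gene Tnfrsf10b fell from 528 ± 54.9 to 402 ± 9.98.

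Of 17 signalling and ubiquitin editing genes 5 rose and none fell. They included Tnfaip3, which encodes A20, a ubiquitin editor that restrains NF-kB (557 ± 54.8 to 2314 ± 1473), and its partner gene Tnip1 (299.6 ± 18.7 to 559 ± 112). Of 20 execution genes 16 were tested, 4 rose and 1 fell. Panx1, a membrane channel opened by caspase cleavage, rose from 83.0 ± 16.9 to 153 ± 19.8 (log2 0.89, SE 0.22, limma adjusted p = 0.0129), and Dffa, which encodes the inhibitor of the caspase-activated DNase, fell from 261 ± 26.9 to 158 ± 30.0. Birc5, which encodes survivin, rose from 6.12 ± 2.33 to 50.4 ± 20.2. It belongs also to a proliferation list, in which 5 of 8 genes rose and 1 fell.

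Of 11 inflammasome and lytic death genes 6 rose and 1 fell. Of these 6, at least the 4 named next reached the minimum of 10 reads through their PVR libraries alone. The 4 with the smallest p had 0 to 9 reads in the Normal libraries: Casp1, whose protein cuts GSDMD, went from 2.36 ± 3.34 to 51.1 ± 31.5, the DNA sensor gene Aim2 from 3.76 ± 2.32 to 104 ± 52.2, Nlrp1b from 2.64 ± 2.58 to 62.5 ± 33.9, and Zbp1, an activator of RIPK3, from 5.75 ± 2.83 to 65.8 ± 48.9. Il18, a cytokine released in pyroptosis, was well expressed and fell from 493 ± 42.9 to 309 ± 37.7 (log2 -0.68, limma adjusted p = 0.00466). Of 22 p53 targets 21 were tested, 7 rose and 2 fell. Phlda3 rose from 194 ± 11.3 to 423 ± 71.2, Eda2r from 10.2 ± 8.34 to 77.4 ± 14.3 and Trp53inp1 from 305 ± 45.5 to 489.5 ± 14.9, while Ei24 fell from 1554 ± 168 to 1037 ± 70.7 and Perp from 4047 ± 524 to 3049 ± 261. The p53 targets thus included genes called in each direction. Tnfrsf10b, Il18 and Perp were named after their values were seen.

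The PVR libraries differed among themselves in macrophage marker level, and the death genes differed in their level in PVR 3. PVR 3 held the lowest summed level of macrophage markers of the PVR group, and each of the 24 markers that rose was lowest there, at 0.275 to 0.762 times the mean of PVR 1 and 2 (median 0.41). The upper end is Tmem119 alone, and the other 23 markers lay at 0.275 to 0.51. The same ratio was 0.283 to 1.19 (median 0.669) over the 18 death genes that rose, 14 of which were lowest in PVR 3 (77.8%, beside 74.1% of all 2825 genes called higher, whose median was 0.759), so the share is near that of all such genes. Within the 18, Bcl2a1b (0.283), Bcl2a1d (0.426), Pmaip1 (0.43), Gsdmd (0.512), Mlkl (0.512) and Ripk3 (0.516) had the lowest ratios, the first 3 of them among the 23 markers and the other 3 just above these. In the A1 copies the low ratio came from a high PVR 1 value, not from PVR 3 standing apart. Bcl2a1b was 30.8 in PVR 2 and 29.3 in PVR 3, and Bcl2a1d was 33.0 and 39.7, so their pattern over the PVR libraries was not that of the markers. Birc3 (0.551), Ninj1 (0.617), Bid (0.661), Casp12 (0.676) and Bbc3 (0.711) were above all macrophage markers that rose except Tmem119. Of the markers outside the 24, Csf1r, which fell, was at 1.18 and Cd163, which was not called, at 0.433. Casp8 (0.775), Ripk1 (0.842), Apaf1 (0.842), Mdm2 (0.847), Bcl2l11 (0.881), Trp53 (0.934) and Bok (1.19) lay above every marker that rose. Casp8 was only just above Tmem119 (0.762), and its value in PVR 3 (371) was near PVR 1 (401) but well below PVR 2 (557). Replicate 3 of both groups carries sample numbers apart from those of replicates 1 and 2, and whether it was processed apart is not given. A difference of PVR 3 in the tissue and one in its handling cannot be told apart here. This is a description over 3 libraries, and the part of macrophage RNA in each gene was not tested.

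**Figure D4:**
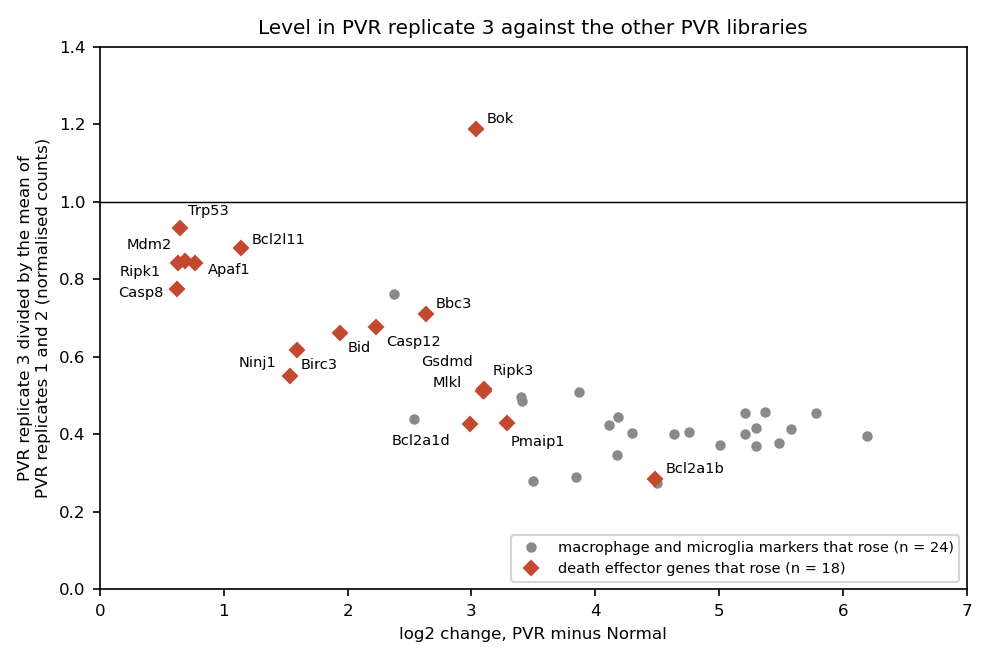
Level in PVR 3 divided by the mean of PVR 1 and 2 (normalised counts, vertical axis, line at 1) against the log2 change between PVR and Normal (horizontal axis), for the 18 death genes that rose (red) and the 24 macrophage and microglia markers that rose (grey). Bcl2a1b, Bcl2a1d and Pmaip1 lie at the height of most grey points, and Trp53, Mdm2, Apaf1, Ripk1, Casp8 and Bcl2l11 above all of them. For Bcl2a1b and Bcl2a1d this height comes from a high PVR 1 value, with PVR 2 and PVR 3 near each other.

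Some values carry limits of read assignment, since how reads were assigned to strands is not given in the sources used here. Bcl2, Bak1, Bid, Bad, Casp9, Endog, Fadd and Ripk1 share annotated exon bases with a gene on the opposite strand, and Diablo and Parp1 with one on the same strand. Besides the A1 copies, Cycs shares 22.6% of its 100-base stretches with pseudogenes, Diablo 15.7% and Bcl2l2 10.9% with overlapping gene models.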

How the data were processed

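Polyadenylated RNA, extracted with TRIzol per the labels' protocols, was measured in 3 Normal and 3 PVR libraries, grouped by sample title. The deposited values are a normalised signal: counts that the authors divided by 1 size factor per library, as the values show. All values (100%) were whole reads within 0.001 reads after rescaling, and the factors equalled the median-ratio factors of DESeq2. Build mm10 and DESeq2 are named, per the submitters' processing notes, without a role. Aligner, counter, strand setting and annotation: not given in the sources used here. Recovered totals were 15929388, 17075519 and 19173187 reads in Normal 1 to 3 and 17507440, 15269983 and 17775427 in PVR 1 to 3. A count of 0 allows up to 3 reads, or 2.72 to 3.42 normalised counts, for counting error only. No libraries were duplicates (chi-square per gene at least 19.9).

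Normalised counts were tested as log2(value + 1) with limma 3.58.1 in R 4.3.3, two-sided, with intensity trend and robust moderation, over the 15766 genes passing filterByExpr at a minimum of 10 reads, with Benjamini-Hochberg adjustment and a threshold of 0.05. An adjusted p without another name is limma's. Alternatives were edgeR 4.0.16, DESeq2 1.42.0 and limma-voom on recovered reads, other pseudocounts, filters and scalings, a replicate block, and libraries left out. Same-numbered Normal and PVR libraries deviated together (correlations 0.206, 0.195 and 0.179, and -0.137 to -0.0689 between different numbers). The main test had no replicate term, so its counts and adjusted p-values do not use this pairing. The replicate block takes the titles' numbers as pairs, and its value is given where it changes a call.

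All 43 genes are accounted for. Values in every library are given for genes called with groups that do not overlap and for those that define a pathway step. Of each other list at most 4 genes with the smallest p are named, and 1 that the rule would name is not reported here. The genes and lists were chosen with earlier results of these data known. Levels per kilobase use the merged exon length of GENCODE M21, or its longest transcript as the alternative. Tables and figures were made in Python 3.11.15 with matplotlib 3.10.9, scipy 1.17.1, numpy 2.4.6 and pandas 2.3.3.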

Additional observations from a re-analysis of the deposited data

How the results depend on the processing

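Of the 22 death genes called, 17 were called under all 18 alternatives; the exceptions were Bok, Bad, Casp8, Casp12 and Aifm1. Of the 19 not called, 17 were called under none; the exceptions were Mcl1 (6 alternatives, adjusted p from 0.00203 to 0.166) and Gsdme (3). No call reversed. The replicate block changed no call among the 43 genes other than those of Mcl1 and Gsdme, giving 20 higher and 4 lower, and 3079 higher and 2249 lower over all genes. Leaving out 1 library in turn gave 15 to 18 of the 43 higher and 2 to 4 lower. Over all genes, 16262 to 16419 tested, it gave 2193 to 2844 higher and 1307 to 2026 lower. The other death genes had 17 to 27 higher and 3 to 5 lower (3 also with replicates 1 and 2 only). The 2 and 1307 came without Normal 1, the 17 without PVR 2, and the 3 without Normal 3, PVR 1 or PVR 2; fewer libraries leave fewer degrees of freedom. The median log2 change of the 41 tested genes, 0.35, was 0.31 to 0.44 over these, 0.43 without Normal 2 and PVR 3 together, and 0.27 when scaled to library totals, where 50.7% of all calls were higher against 58.2%. Depth limits what can be said of Bik, Hrk and the Normal levels of Bcl2a1b, Bcl2a1d, Bok, Mlkl and Casp12.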

Other observations

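The library with the highest value within the PVR group differed between the death genes that rose. PVR 2 held the highest summed level of macrophage markers (102770, against 78553 in PVR 1), while 9 of the 18 death genes that rose were highest in PVR 1 and 8 in PVR 2. The same count over all genes that rose is not given here, so this split cannot be set against a background. Bcl2a1b, Bcl2a1d, Birc3, Bbc3, Bcl2l11, Mlkl, Gsdmd, Ripk1 and Mdm2 were highest in PVR 1, and Bid, Pmaip1, Casp8, Casp12, Apaf1, Ripk3, Ninj1 and Trp53 in PVR 2. Tnf, the ligand of TNF receptor 1, named after its values were seen, was 35.0, 25.9 and 8.16 in Normal and 1245, 223 and 83.1 in PVR libraries (log2 3.79, SE 1.12, limma adjusted p = 0.0549, and 0.000556 with the replicate block). Tnfaip3 was 580.3, 595 and 494 in Normal and 3961, 1856 and 1124 in PVR libraries, so both also stood highest in PVR 1.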
